A study of Mus musculus with 9 samples.

Results

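The 10 genes described here encode subunits of the transcription factor NF-kB and its inhibitors, some of which NF-kB itself induces: Nfkbia, Nfkbib, Nfkbie, Nfkbiz, Bcl3, Tnfaip3, Nfkb1, Nfkb2, Rel and Relb. They were chosen by gene symbol, with earlier results of these counts known, in which Nfkbia was higher in Tc22 than in Tc0 cells. All 10 were found among the 53679 gene IDs of the deposited table, and all 10 were among the 15348 genes that passed the filter on low counts. RNA of CD8+ T cells from C57BL/6 mice was sequenced after 3 days of activation. The 3 groups were Tc0 cells, Tc0 cells given CoA (coenzyme A) and Tc22 cells, the field's name for cytotoxic T cells that make the cytokine IL-22. Each group held 1 library from each of the mice numbered 715, 725 and 728, so every comparison could be made within a mouse. No genetic change is named for any group; all 3 share the strain and the activation, and the culture that made cells Tc0 or Tc22 is not given in the sources used here. In bulk RNA, fewer cells of a type and less RNA per cell cannot be told apart.

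NF-kB factors are dimers of 5 related proteins: RelA, RelB and c-Rel carry an activation domain, while Nfkb1 and Nfkb2 encode precursors that are processed to DNA-binding subunits. In resting cells, IkB proteins hold the dimers in the cytoplasm. Signals from the T cell receptor, CD28 or TNF receptors activate the IKK kinases, which mark IkB for destruction and free the canonical dimers. A slower, noncanonical route processes the Nfkb2 precursor and releases RelB. Free NF-kB binds kappa-B sites and transcribes genes of its own inhibitors, among them Nfkbia and Tnfaip3, which close a negative feedback loop. In CD8+ T cells the pathway is known for its part in activation, survival and cytokine production.

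The kappa-B consensus was searched in RefSeq promoter windows (GRCm38.p6; 250 bases before to 50 after a start site, both strands), which were at hand for 7 of the 10 genes in 10 windows. It was present for 6 of the 7, in 8 of the 10 windows (80.0%); of all 32851 promoter windows, 2779 (8.46%) held it. A match is a stretch of letters and was not measured as a binding site. The sequences below show the matched stretch of each gene in capitals, 5′ to 3′ on the gene's strand, with 10 bases on each side or up to 30 bases in all. They are given because these genes are known as NF-kB targets and because their transcripts are the values that follow.
Nfkbia, chr12:55492657-55492686, minus strand, 29 bases upstream of the start: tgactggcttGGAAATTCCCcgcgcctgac
Nfkbie, chr17:45555584-45555613, plus strand, 106 bases upstream: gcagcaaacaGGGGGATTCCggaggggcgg
Bcl3, chr7:19822734-19822763, minus strand, from base 3 of the first exon: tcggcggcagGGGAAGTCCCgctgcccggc
Tnfaip3, chr10:19015516-19015545, minus strand, 125 bases upstream of a start within the gene: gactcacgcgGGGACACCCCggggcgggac
Tnfaip3, chr10:19015403-19015432, minus strand, 12 bases upstream of that start: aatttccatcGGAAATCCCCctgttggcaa
Nfkb2, chr19:46304688-46304717, plus strand, 39 bases upstream of its first start: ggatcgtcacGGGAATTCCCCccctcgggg
Nfkb2, chr19:46304716-46304745, plus strand, 11 bases upstream of that start: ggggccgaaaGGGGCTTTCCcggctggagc
Rel, chr11:23771042-23771071, minus strand, 92 bases upstream: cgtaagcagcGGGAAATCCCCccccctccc

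In GENCODE M21 the Nfkbia, Nfkbie and Rel stretches lie just outside the gene, those of Bcl3 and Nfkb2 lie in exons, and both of Tnfaip3 lie in an intron. The capitals of Rel and of the first Nfkb2 line run to 11 bases because 2 matches overlap there. A further pair of Nfkb2 stretches lies by its later starts, at chr19:46305449-46305478 and chr19:46305695-46305724. The window of Nfkbib held no match, which says only that these letters are not in it.

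The genes lie apart in the genome (GRCm38, whole-gene bounds): Nfkbia at chr12:55489410-55492647, Nfkbie at chr17:45555703-45563169, Nfkbiz at chr16:55811375-55838899, Tnfaip3 at chr10:19000910-19015657, Nfkb1 at chr3:135584655-135691547, Nfkb2 at chr19:46304320-46312385 and Rel at chr11:23736847-23770970. The other 3 are on chromosome 7, Nfkbib at chr7:28758251-28767512, Bcl3 at chr7:19808462-19822770 and Relb at chr7:19606217-19629438, with 179023 bases between Relb and Bcl3. Exons of Nfkbib, Bcl3 and Nfkb2 overlap genes on the opposite strand: Nfkbib shares 314 bases with Ccer2 and 42 with Sirt2. Whether the counting used strand is not given, so reads from these stretches cannot be assigned with certainty.

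The libraries held 21841034 to 36254631 counts, and a member had between 76 (Nfkbib) and 16106 (Nfkb1) counts in a library. Levels are CPM, the usual depth-scaled count, here with TMM-scaled library sizes, and differences are log2 fold changes from edgeR's quasi-likelihood test with mouse as a block, with p-values adjusted over all genes tested and a threshold of 0.05. The Tc0 library of mouse 728 stood apart: it was the deepest, had the most histone counts (0.668% against 0.140% and 0.188% in the other Tc0 libraries) and the fewest mitochondrial counts (2.0% against 3.97% and 3.33%), and was the highest Tc0 library for 8 of the 10 genes. In each mouse Tc22 had a lower mitochondrial share than CoA (3.33% against 4.0%, 2.01% against 3.64% and 2.3% against 2.66%) and a higher histone share (0.252% against 0.162%, 0.408% against 0.178% and 0.493% against 0.366%). With CoA the mitochondrial share was also higher than in Tc0 in each mouse (4.0% against 3.97%, 3.64% against 3.33% and 2.66% against 2.0%). Both shares thus moved with the groups in Tc22 against CoA, and the mitochondrial share in CoA against Tc0. The part of these shares in the results was not tested. Markers of CD8+ T cells were abundant, with Cd8a at 647 to 860.2 CPM and Cd4 at 0.140 to 1.37 CPM over all 9 libraries.

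**Figure D1:**
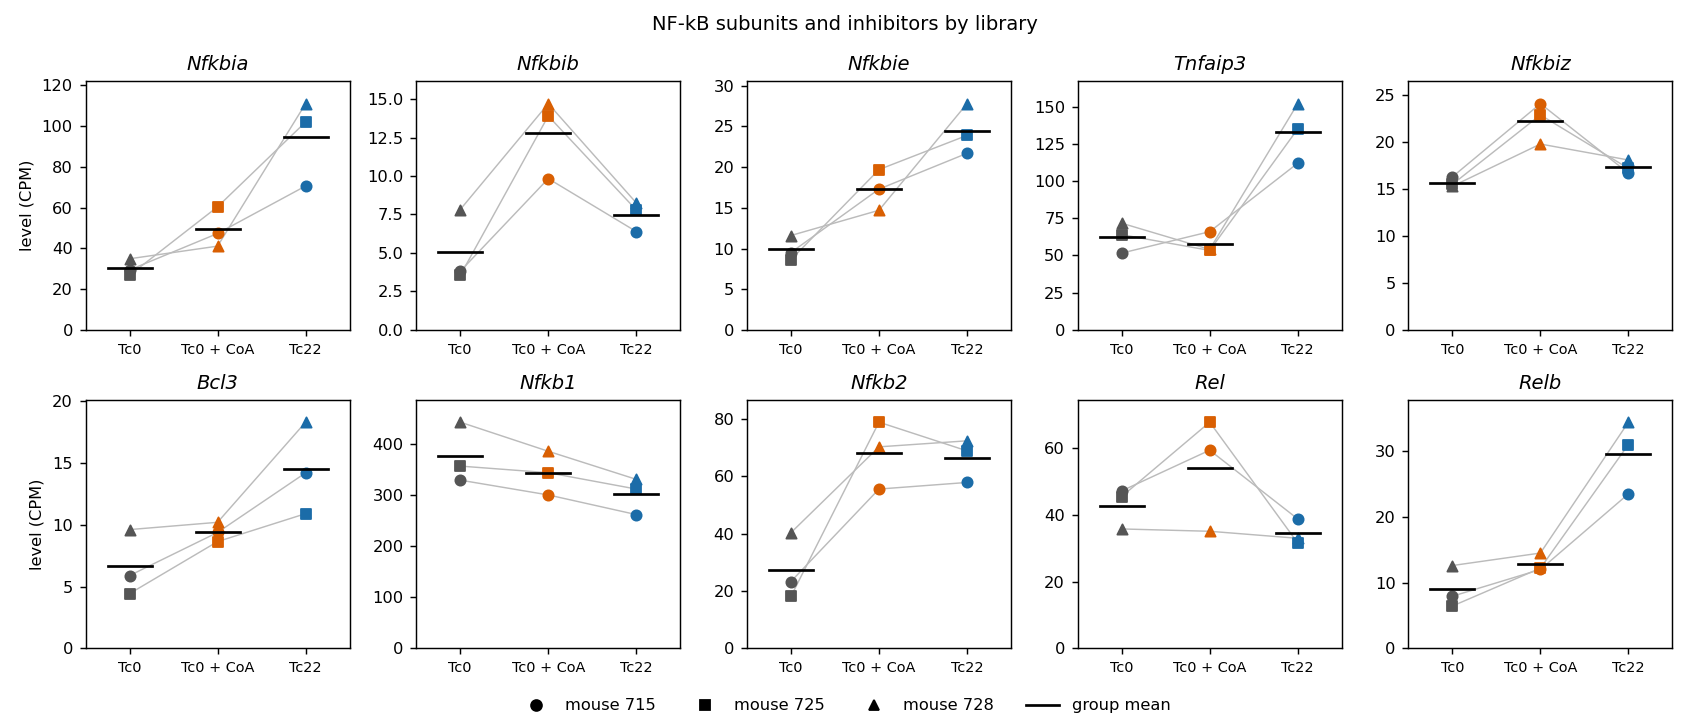
Level of each of the 10 genes in CPM (vertical axes, linear and starting at 0) in the 3 libraries of Tc0, Tc0 with CoA and Tc22; points are libraries with a shape for each mouse, grey lines join libraries of a mouse, and black lines are group means. Nfkbia, Tnfaip3 and Relb are highest in all 3 Tc22 libraries, Nfkbib is highest in the 3 CoA libraries, and Nfkb1 overlaps between all groups.

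The classical IkB genes were higher with CoA, and Nfkbia and Nfkbie were higher again in Tc22. Nfkbia encodes IkB alpha, the fastest of the feedback inhibitors. It stood at 29.4, 26.8 and 34.9 CPM in the Tc0 libraries of mice 715, 725 and 728, at 47.3, 60.4 and 41.1 CPM with CoA, and at 70.6, 102 and 111 CPM in Tc22. The 3 groups did not overlap, and each mouse showed the same order. With CoA Nfkbia rose by 0.70 (SE 0.18, adjusted p = 0.0206), and Tc22 exceeded CoA by 0.91 (SE 0.18, adjusted p = 0.00507). The rise with CoA ranged from 0.24 in mouse 728 to 1.17 in mouse 725, and its adjusted p was 0.0568 without the mouse block and 0.119 without the Tc0 library of mouse 725. Against Tc0, Tc22 was higher by 1.61 (SE 0.18), the value that was known when the genes were chosen. The other comparisons share its Tc22 or its Tc0 libraries, so their p-values are not independent of that choice.

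Nfkbie encodes IkB epsilon, which binds mainly c-Rel and RelA dimers. Its levels were 9.51, 8.63 and 11.6 CPM in Tc0, 17.3, 19.7 and 14.7 CPM with CoA and 21.7, 23.9 and 27.8 CPM in Tc22. Again the groups did not overlap and every mouse had its lowest value in Tc0 and its highest in Tc22. The rise with CoA was 0.81 (SE 0.17, adjusted p = 0.0104), which was lost without the Tc0 or the CoA library of mouse 725 (adjusted p = 0.0667 and 0.0561), and Tc22 lay 1.3 (SE 0.17) above Tc0. Tc22 was higher than CoA by 0.49 (SE 0.17, adjusted p = 0.0481), a call that did not hold under 8 of 14 alternatives (adjusted p from 0.0323 to 0.270).

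Nfkbib, which encodes IkB beta, a slower inhibitor, had another order. It was at 3.81, 3.54 and 7.82 CPM in Tc0, at 9.83, 13.9 and 14.7 CPM with CoA and at 6.39, 7.79 and 8.25 CPM in Tc22. All CoA libraries were above all others, while Tc0 and Tc22 overlapped through the Tc0 library of mouse 728. Nfkbib rose with CoA by 1.38 (SE 0.22, adjusted p = 0.00390), the largest difference from Tc0 with CoA among the 10 genes, and this held under all 14 alternatives. Tc22 was lower than CoA by -0.77 (SE 0.21, adjusted p = 0.0214), which did not hold without the mouse block (adjusted p = 0.120) or in 5 other alternatives. Tc22 against Tc0 gave 0.61 (SE 0.22) and was not past the threshold with all libraries, but was at 0.91 without the Tc0 library of mouse 728.

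The nuclear IkB proteins, which act on NF-kB bound to DNA and can raise or lower its targets, are encoded by Nfkbiz and Bcl3. Nfkbiz encodes IkB zeta. It was at 16.3, 15.5 and 15.3 CPM in Tc0, at 24.1, 22.9 and 19.8 CPM with CoA and at 16.7, 17.2 and 18.1 CPM in Tc22. The CoA libraries were above all others, and the Tc0 and Tc22 ranges lay next to each other without overlap. Nfkbiz rose with CoA by 0.50 (SE 0.13, adjusted p = 0.0205), which was lost in 6 of 14 alternatives, among them the fit without the mouse block (adjusted p = 0.0505). Tc22 against Tc0 gave 0.15 (SE 0.13), and Tc22 against CoA gave -0.36 (SE 0.13, adjusted p = 0.0581); neither passed.

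Bcl3 encodes a nuclear IkB that pairs with the processed products of Nfkb1 and Nfkb2. Its levels were 5.89, 4.43 and 9.61 CPM in Tc0, 9.38, 8.64 and 10.2 CPM with CoA and 14.2, 10.9 and 18.3 CPM in Tc22. The Tc22 libraries were above all others, while Tc0 and CoA overlapped through mouse 728, where they differed by 0.09. Bcl3 rose with CoA by 0.56 (SE 0.18, adjusted p = 0.0477), a call lost in 10 of 14 alternatives (adjusted p up to 0.312). Tc22 was above CoA by 0.58 (SE 0.18, adjusted p = 0.0314), which was lost in 6 of 14, and above Tc0 by 1.15 (SE 0.18); without the mouse block the difference from Tc0 was 1.12 and did not pass.

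Tnfaip3 was high in Tc22 and did not pass with CoA. It encodes a ubiquitin-editing enzyme that shuts off signalling upstream of the IKK kinases and is cut by the Malt1 protease after T cell receptor signals. Its levels were 51.6, 64.0 and 71.7 CPM in Tc0, 66.0, 53.4 and 54.1 CPM with CoA and 112, 135 and 152 CPM in Tc22. The Tc22 libraries were above all 6 others, and Tc0 and CoA overlapped. With CoA the difference was -0.09 (SE 0.15, adjusted p = 0.688), positive in mouse 715 at 0.36 and negative in the other mice at -0.26 and -0.41. Tc22 exceeded CoA by 1.19 (SE 0.15, adjusted p = 0.000879) and Tc0 by 1.1 (SE 0.15); the latter was 1.13, 1.08 and 1.09 in the 3 mice, the narrowest spread between mice among the genes past the threshold in that comparison.

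Among the subunits, the noncanonical pair Nfkb2 and Relb differed between groups. Nfkb2 was at 23.3, 18.1 and 40.3 CPM in Tc0, at 55.5, 78.8 and 70.2 CPM with CoA and at 57.8, 68.8 and 72.3 CPM in Tc22. All CoA and Tc22 libraries were above all Tc0 libraries, and CoA and Tc22 overlapped. Nfkb2 rose with CoA by 1.36 (SE 0.21, adjusted p = 0.00367), which held under all 14 alternatives, with 1.25, 2.12 and 0.80 in the 3 mice. Tc22 was 1.32 (SE 0.21) above Tc0, not past the threshold without the mouse block at 1.28. Tc22 and CoA differed by -0.04 (SE 0.20, adjusted p = 0.891).

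Relb encodes the subunit that the noncanonical route releases. It was at 7.93, 6.44 and 12.6 CPM in Tc0, at 12.0, 12.2 and 14.5 CPM with CoA and at 23.5, 31.0 and 34.4 CPM in Tc22. Every Tc22 library was above every other library, whereas Tc0 and CoA overlapped. Tc22 was higher than CoA by 1.19 (SE 0.17, adjusted p = 0.00154), under all 14 alternatives too, and higher than Tc0 by 1.74 (SE 0.18), the largest Tc22 difference of the 10. With CoA Relb rose by 0.55 (SE 0.18, adjusted p = 0.0485), which was lost in 9 of 14 alternatives (adjusted p up to 0.235).

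The canonical subunits Nfkb1, Rel and Rela passed in none of the comparisons with Tc0. Nfkb1 was at 329.5, 357 and 443 CPM in Tc0, at 300.5, 344 and 386 CPM with CoA and at 262, 312 and 331 CPM in Tc22, with overlap between all groups. Its differences were -0.13 (SE 0.10, adjusted p = 0.355) for CoA against Tc0, -0.32 (SE 0.10) for Tc22 against Tc0 and -0.19 (SE 0.10, adjusted p = 0.168) for Tc22 against CoA, negative in all 3 mice each time. Rel, which encodes c-Rel, was at 47.2, 45.5 and 35.8 CPM in Tc0, at 59.4, 67.8 and 35.1 CPM with CoA and at 38.8, 31.6 and 33.0 CPM in Tc22. The CoA library of mouse 728 was low, below every Tc0 library and within the range of Tc22. Rel was lower in Tc22 than with CoA by -0.61 (SE 0.17, adjusted p = 0.0204), from -1.10 in mouse 725 to -0.09 in mouse 728, and this was lost in 4 of 14 alternatives, among them the fit without the mouse block (adjusted p = 0.0859). Its difference from Tc0 was 0.31 (SE 0.16, adjusted p = 0.194) with CoA and -0.30 (SE 0.16) in Tc22. Rela, the remaining subunit, was at 14.1, 15.8 and 36.6 CPM in Tc0, 17.4, 22.8 and 28.9 CPM with CoA and 23.4, 28.5 and 34.8 CPM in Tc22. Its differences were 0.14 (adjusted p = 0.621) with CoA, 0.48 (adjusted p = 0.184) in Tc22 and 0.34 (adjusted p = 0.181) for Tc22 against CoA. Without the high Tc0 library of mouse 728 they were 0.44 (adjusted p = 0.0339), 0.77 (adjusted p = 0.0128) and 0.34 (adjusted p = 0.0304).

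**Figure D2:**
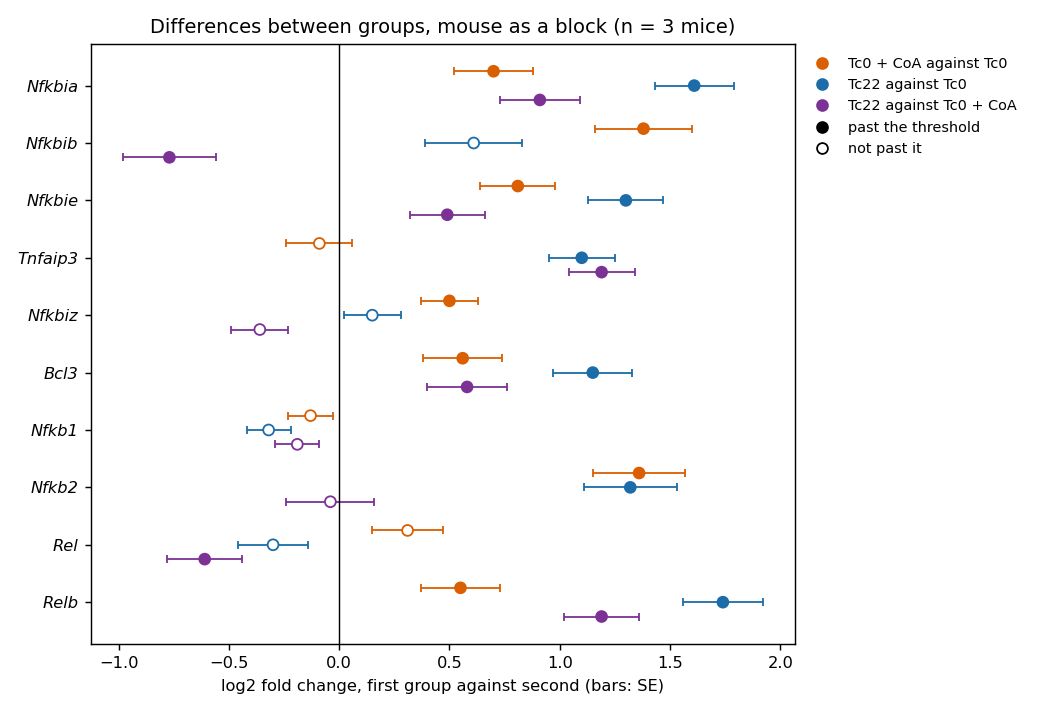
Log2 fold change (horizontal axis) of each of the 10 genes for CoA against Tc0, Tc22 against Tc0 and Tc22 against CoA; points are fitted values with bars of 1 SE, filled where past the threshold. Tnfaip3 lies at -0.09 with CoA but above 1 in both Tc22 comparisons, and Nfkbib, Nfkbiz and Rel lie below 0 in Tc22 against CoA.

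Counted over the 10 genes, 7 were higher and 0 lower with CoA than in Tc0, where 12.5% of all genes tested were called higher and 12.0% lower; none of the 10 was lower at an unadjusted p under 0.05 or with DESeq2 (0 each). Tc22 against Tc0 had 6 higher and 0 lower beside 2.48% and 1.21% of all genes, and since the genes were chosen with that comparison known nothing is read from it. There, 1 gene, Nfkb1, was lower at an unadjusted p under 0.05, and 0 with DESeq2. In Tc22 against CoA 5 were higher and 2 lower, beside 16.0% of all genes higher and 16.0% lower. The median log2 difference of the 10 was 0.56, 1.12 and 0.22 in the 3 comparisons, and that of all genes tested was -0.01, -0.01 and 0.01. Both comparisons with Tc0 use the same Tc0 libraries, and Tc22 against CoA uses the same Tc22 libraries as the comparison that was known. None of the 3 is therefore independent of how the genes were chosen. With CoA, the difference was smallest in mouse 728 for all 7 genes called and largest in mouse 725 for 6 of them. Without either the Tc0 or the CoA library of mouse 725, 2 of the 10 were called, Nfkbib and Nfkb2, and without the Tc0 library of mouse 728 there were 7. The number of all genes called in Tc22 against Tc0 also moved with single libraries, from 201 genes without the Tc22 library of mouse 725 to 2669 without the Tc0 library of mouse 728, against 565 with all.

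Some markers of other cell types differed between groups. Sums are over every gene of a list, those under the filter included. Beside the counts below, the share of all genes called was 12.5% higher and 12.0% lower with CoA. It was 2.48% and 1.21% in Tc22 against Tc0, and 16.0% and 16.0% in Tc22 against CoA. Nothing is read from the counts. The summed level of the macrophage and monocyte markers, 5 of 6 past the filter, was 4.97 to 8.26 CPM in Tc0, 5.47 to 15.3 CPM with CoA and 6.73 to 8.63 CPM in Tc22. Among them Lyz2 was called higher with CoA. Cd14 and Csf1r passed the filter on low counts only with the CoA libraries, so calls on them are left out. Dendritic cell markers, 4 of 6 past the filter and Siglech at 0 in every library, summed to 3.73 to 5.0, 5.46 to 9.40 and 4.36 to 5.85 CPM, with 1 called higher with CoA. The CD4 and regulatory T cell list summed to 12.1 to 21.8, 24.7 to 29.7 and 21.3 to 29.0 CPM. Of its 4 genes Ikzf4 was called higher with CoA, and Cd4 in Tc22 against Tc0, where DESeq2 called 0. Natural killer markers, 2 of 4 past the filter, summed to 0.798 to 2.17, 0.311 to 0.721 and 3.09 to 3.35 CPM. Klra7, 1 of the 2, passed the filter only through the Tc22 libraries, so its calls as higher in Tc22 are left out. It was called lower with CoA than in Tc0. The other, Klrb1c, was called higher in Tc22 than with CoA. Gamma delta T cell genes summed to 136 to 187, 101 to 129 and 131 to 162 CPM, with 1 of 4 called lower with CoA. In Tc22 against CoA 1 gamma delta gene was higher and 2 lower. There, Cd68 was higher and Lyz2 lower among the macrophage and monocyte markers, and 1 dendritic cell marker was lower. Of the B cell list only Cd79b passed the filter, and the list summed to 7.10 to 11.9 CPM over all libraries. Their part in the results on the 10 genes was not tested. The 8 CD8+ T cell markers summed to 2353 to 2917 CPM in Tc0, 1961 to 2428 CPM with CoA and 2220.5 to 2733 CPM in Tc22. With CoA 4 of them were lower than in Tc0, and in Tc22 against CoA 4 were higher and 1 lower.

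Per length of exon, the order of the transcripts differed between groups. Length here is the union of all annotated exons, 12061 bases for Nfkb1 and 1610 bases for Nfkbia. A transcript can be shorter than this union, and which transcripts were present was not measured. The order between genes, that of Nfkbia and Nfkb1 included, therefore depends on the length used. In Tc0, Nfkb1 led at a mean of 31.2 CPM per kb, followed by Nfkbia at 18.9 and Tnfaip3 at 8.64 CPM per kb, each without overlap with the next of these 3. Tnfaip3 overlapped Nfkb2 at 5.94 CPM per kb, which overlapped Rel at 5.73 CPM per kb, and below them Nfkbie, Nfkbiz, Bcl3, Nfkbib and Relb lay between 3.25 and 2.32 CPM per kb with each neighbour overlapping the next. With CoA, Nfkbia at 30.8 and Nfkb1 at 28.5 CPM per kb overlapped at the top, Nfkb2 came next at 14.9 CPM per kb without overlap on either side, and Relb was last at 3.32 CPM per kb. In Tc22, Nfkbia at 58.6 CPM per kb was above Nfkb1 at 25.0 CPM per kb in every library. Tnfaip3 at 18.4 and Nfkb2 at 14.5 CPM per kb followed and overlapped, then Nfkbie at 8.03, Relb at 7.62 and Bcl3 at 5.85 CPM per kb. Rel at 4.62 CPM per kb overlapped Bcl3, and Nfkbib and Nfkbiz, both at 3.45 CPM per kb, were last.

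**Figure D3:**
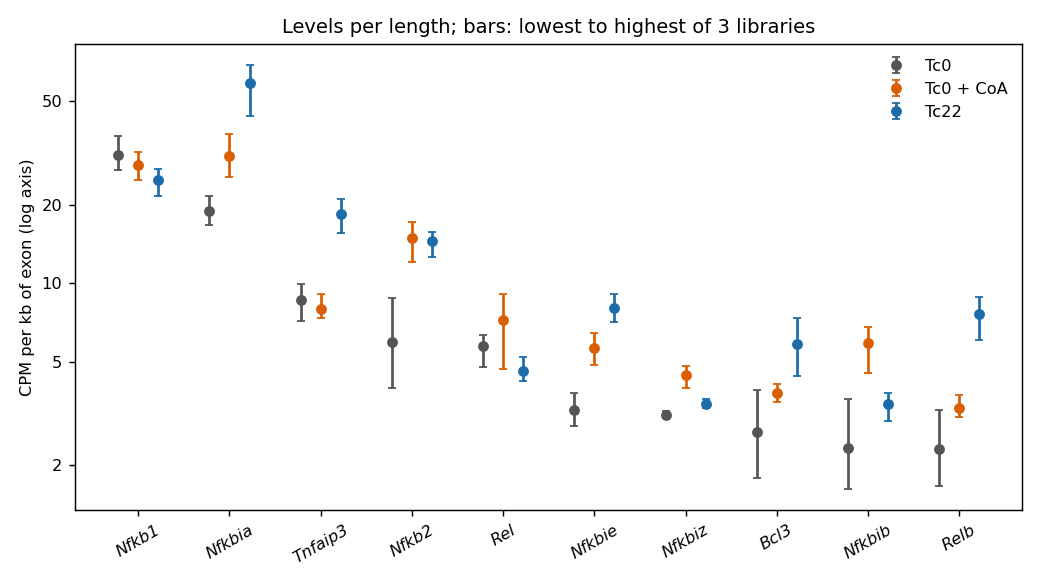
Mean level per kb of exon (vertical log axis, CPM per kb) of each of the 10 genes in the 3 groups, with bars from the lowest to the highest library. On this scale the inhibitor Nfkbia passes from 18.9 in Tc0, below Nfkb1 at 31.2, to 58.6 in Tc22, above Nfkb1 at 25.0. The order between genes depends on the length used, the union of all annotated exons.

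The level of Nfkbia over the 9 libraries was most like that of Nfkbie among 9154 genes with a mean of at least 5 CPM (Pearson r of log2 CPM 0.971), followed by Optn (0.948), Relb (0.942), Faf2 (0.932) and Shroom3 (0.927). These values are a description, because the libraries share mice and groups. Optn, which encodes a ubiquitin-binding adaptor, was at 3.40 ± 0.530, 4.17 ± 0.392 and 9.24 ± 2.19 CPM (mean ± SD, n = 3) in Tc0, CoA and Tc22. Shroom3, which encodes an actin-binding protein, was at 3.46 ± 1.03, 7.17 ± 2.35 and 18.6 ± 2.04 CPM. Bcl3 (r 0.833), Tnfaip3 (0.829) and Nfkb2 (0.782) stood at ranks 40, 44 and 79. Nfkbib (0.403) and Nfkbiz (0.232), which were highest with CoA, were less like it. Rel (-0.336) and Nfkb1 (-0.476) had weak negative values, at ranks 6762 and 7891.

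The rest of the pathway was described on 5 lists, chosen with earlier results of these data known. The p-values of their genes, and of Rela above, therefore describe these libraries and are no independent support. Counts on each list stand beside the share of all genes tested that was called. That share was 12.5% higher and 12.0% lower with CoA, 2.48% and 1.21% in Tc22 against Tc0, and 16.0% and 16.0% in Tc22 against CoA. Nothing is read from counts near these shares. The IKK and upstream kinases, which relay signals to IkB, were called in neither comparison with Tc0 (0 of 10 with edgeR; 2 with CoA and 5 in Tc22 at an unadjusted p under 0.05, and 1 each with DESeq2). In Tc22 against CoA 3 rose and 2 fell. Chuk, which encodes the kinase IKK alpha, was lower by -0.60 (adjusted p = 0.00422) and Map3k7, which encodes the kinase TAK1, by -0.52 (adjusted p = 0.00636), while Tab2, its adaptor, was higher by 0.58 (adjusted p = 0.00666). Without the mouse block Chuk (adjusted p = 0.0935) and Map3k7 (adjusted p = 0.0742) did not pass. Without the CoA library of mouse 728 Map3k7 (adjusted p = 0.0523) and Tab2 (adjusted p = 0.0519) did not, nor did Map3k7 without the Tc22 library of mouse 725 (adjusted p = 0.0536).

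The antigen receptor arm links the T cell receptor to IKK through a complex that holds Bcl10 and Malt1. With CoA, 2 of 6 fell and 0 rose (0 at an unadjusted p under 0.05 and 0 with DESeq2). In Tc22 against Tc0, 0 of 6 were called (2 at an unadjusted p under 0.05, 0 with DESeq2), beside 2.48% of all genes higher and 1.21% lower. Compared with CoA, 4 of 6 were higher in Tc22, beside 16.0% of all genes. Malt1, the protease that cuts the Tnfaip3 product, was at 287, 288 and 252 CPM in Tc0, at 145, 95.1 and 131 CPM with CoA and at 337, 307 and 365 CPM in Tc22. The CoA libraries were below all others. Malt1 fell with CoA by -1.17 (SE 0.14, adjusted p = 0.00165) and was 1.45 (SE 0.14, adjusted p = 0.000304) higher in Tc22 than with CoA, under all 14 alternatives in both. Prkcq, which encodes the kinase that starts this arm, fell with CoA by -0.59 (adjusted p = 0.0396), a call lost in 5 of 14 alternatives, including the fit without the mouse block (adjusted p = 0.121).

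In the TNF receptor arm 1 of 11 rose and 1 fell with CoA, 2 rose and 0 fell in Tc22 against Tc0, and 3 were higher and 0 lower in Tc22 against CoA. At an unadjusted p under 0.05, 1 and 2 were lower in these Tc22 comparisons, and 0 with DESeq2. Birc2 and Birc3 encode ubiquitin ligases that restrain the noncanonical route by destroying its kinase, the product of Map3k14. Birc2 fell with CoA by -0.62 (SE 0.14, adjusted p = 0.0127), lost in 3 of 14 alternatives (adjusted p = 0.0760 without the Tc0 library of mouse 725), and was 1.12 (SE 0.14, adjusted p = 0.000872) higher in Tc22 than with CoA. Birc3, itself an NF-kB target, was at 66.6, 60.9 and 60.3 CPM in Tc0, at 52.6, 58.7 and 59.3 CPM with CoA and at 105, 118 and 118 CPM in Tc22, above all other libraries. It rose in Tc22 by 0.85 (SE 0.10, adjusted p = 0.00295). Map3k14 gave 0.64 (SE 0.21, adjusted p = 0.134) in Tc22 against Tc0, and 0.95 (adjusted p = 0.0144) without the Tc0 library of mouse 728.

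Of 14 other negative regulators, 4 rose and 4 fell with CoA, 1 rose and 0 fell in Tc22 against Tc0, and 4 were higher and 3 lower in Tc22 than with CoA. In Tc22 against Tc0, 1 was lower at an unadjusted p under 0.05 and 1 with DESeq2. Tnip3, which encodes a partner of the Tnfaip3 product, was at 48.1, 22.6 and 16.7 CPM in Tc0, at 98.4, 62.3 and 52.6 CPM with CoA and at 38.8, 23.0 and 18.4 CPM in Tc22. Every mouse had its highest value with CoA. Tnip3 rose with CoA by 1.38 (SE 0.13, adjusted p = 0.000691), or adjusted p = 0.0827 without the mouse block, and was lower in Tc22 than with CoA by -1.44 (SE 0.13, adjusted p = 0.000253), or adjusted p = 0.0523 without the block. Nfkbid, another nuclear IkB gene, rose with CoA by 0.80 (SE 0.17, adjusted p = 0.0104) and was lower in Tc22 than with CoA by -1.08 (SE 0.17, adjusted p = 0.00216). The rise was lost without either mouse 725 library (adjusted p = 0.0698 and 0.0574).

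Target genes outside the family were mostly higher with CoA: of 21 measured, 2 (Il2 and Bcl2a1a) passed the filter on low counts only through the CoA libraries and could be called only as higher there, and are left out of these counts. Of the other 19, 11 rose and 0 fell (1 at an unadjusted p under 0.05, 0 with DESeq2), with a median of 0.70, and in Tc22 against Tc0 3 rose and 2 fell, with a median of 0.01. Compared directly, 2 of 19 were higher and 10 lower in Tc22 than with CoA, with a median of -0.73. Birc3 and Traf1 stand both here and in the TNF receptor arm. Ptgs2, which encodes an inducible prostaglandin synthase, was at 0.346, 0.653 and 0.826 CPM in Tc0, at 3.91, 10.3 and 5.02 CPM with CoA and at 0.204, 0.859 and 0.448 CPM in Tc22. The T cell growth factor gene Il2 was at 0.0275 to 0.252 CPM in Tc0, at 2.26 to 15.0 CPM with CoA and at 0.192 to 0.476 CPM in Tc22, and Csf2, which encodes the cytokine GM-CSF, was at 0.303 to 0.699, 3.06 to 9.22 and 0.703 to 0.816 CPM. For all 3 the CoA libraries were above every other library. Ptgs2 and Csf2 rose with CoA (adjusted p = 0.000548 and 0.000967), and Il2 gets no test here. Cd83, a surface protein gene of activated lymphocytes, was lower in Tc22 than in Tc0 by -2.08 (SE 0.29, adjusted p = 0.00442), or adjusted p = 0.134 without the mouse block. Ier3, an early response gene, was higher in Tc22 by 1.3 (SE 0.22, adjusted p = 0.0106), or adjusted p = 0.335 without the block and 0.0714 without the Tc22 library of mouse 725. Bcl2a1d, one of several near-identical survival genes whose reads may be split between copies, rose with CoA by 1.11 (SE 0.14, adjusted p = 0.00199), or adjusted p = 0.0518 without the block.

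**Figure D4:**
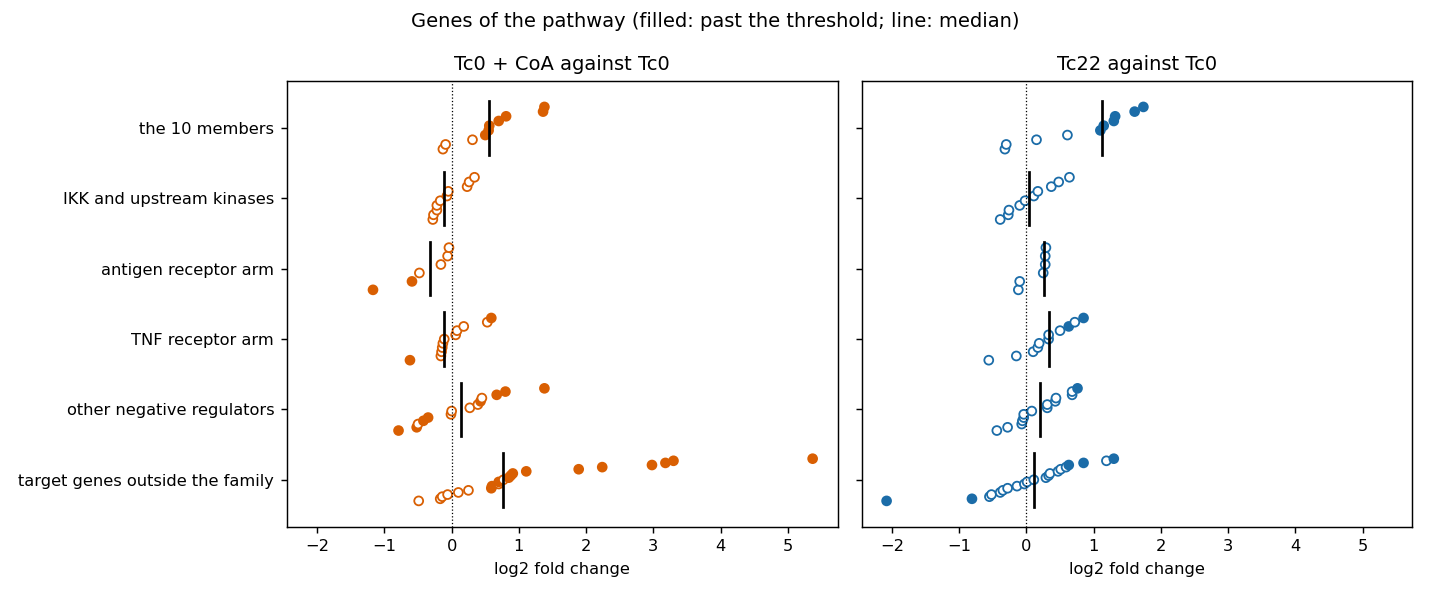
Log2 fold change (horizontal axis) of every measured gene of the 10 and of the 5 pathway lists (rows) for CoA against Tc0 and Tc22 against Tc0; points are genes, filled where past the threshold, and black lines are medians. The target genes, Il2 and Bcl2a1a included, have medians of 0.77 with CoA and 0.11 in Tc22, and the 10 genes 0.56 and 1.12. Without Il2 and Bcl2a1a the target medians are 0.70 and 0.01. These 2 genes passed the filter only through the CoA libraries, so their filled points with CoA are no test.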

How the data were processed

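Gene counts were deposited by the authors as 1 table of 9 columns, identical to the 9 single-library files. Ribosomal RNA was removed before stranded total RNA libraries were made, per the labels' protocols. Alignment and counting tools listed in the submitters' processing notes are STAR 2.5.2 and RSEM 1.3.0, and the listed builds are mm10 and GRCm38, without saying which step used which. Which annotation release, strand setting or filter applied is not given in the sources used here. Every deposited count is a whole number, and IDs without a symbol (114) held 0.0226% of them.

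Counts were tested with edgeR 4.0.16 (R 4.3.3; TMM, filterByExpr by group, 15348 genes, terms for group and mouse, 4 residual degrees of freedom, Benjamini-Hochberg adjustment); the procedure was tested on simulated data. The SE of a log2 fold change is its size over the root of the F statistic. Differences within a mouse are of log2 CPM with a prior count of 0.5. Levels per kb used the union of exons of GENCODE M21. Promoter windows came from RefSeq. Alternatives were DESeq2 1.42.0, its size factors, no filter, no mouse block, the compared groups alone, and leaving out each library.

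The design text states that the populations were matched per mouse, so mouse was a block. Deviations from the group means of same-mouse libraries correlated with r of 0.0673 to 0.570 (9 pairs). Those of different mice correlated with r of -0.475 to 0.212 (18 pairs), so the ranges overlap. Taking deviations from means of 3 libraries pushes the latter down by itself. The p-values rest on the spread over all 9 libraries that is left after the group and mouse terms. In this test the variance of each gene is also drawn toward that of other genes. They are thus no measure of the 3 within-mouse differences of 1 gene and comparison alone.

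The genes and lists were chosen with earlier results of these data known. Named were all 10 genes, Rela, the 5 genes most like Nfkbia, and from each list those past the threshold with the smallest p, up to 4 per comparison (or the 2 smallest p where none passed), of which some are left out; Map3k14 and Tab2 fall under that rule.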

Additional observations from a re-analysis of the deposited data

How the results depend on the processing

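Over 14 alternatives, the 30 results on the 10 genes gave 420 values, of which 358 kept their direction and side of the threshold, 57 were no longer past it, 2 came past it and 3 changed sign. Those 3 were small: Tnfaip3 with CoA gave 0.06 without the CoA library of mouse 728 (-0.30 to 0.06 over the libraries left out), and Nfkb2 in Tc22 against CoA gave 0.19 without the CoA library of mouse 725 and 0.06 without the Tc22 library of mouse 728 (-0.20 to 0.19). Of 644 values for other named genes 547 kept both, 83 were lost, 13 gained and 1 changed sign, Rela with CoA at -0.04 without the Tc0 library of mouse 725 (-0.04 to 0.44). The 547 include 14 values of Il2 with CoA, which gets no test here and adds nothing to that count. Without the replicate block of mouse, genes called fell from 3763 to 1462 (CoA against Tc0), from 565 to 120 (Tc22 against Tc0) and from 4913 to 2097 (Tc22 against CoA), and members called from 7 to 3, 6 to 4 and 7 to 3. With the compared groups alone, 4 members were called with CoA. In Tc22 against Tc0, DESeq2 called 953 genes and the unfiltered fit 1275. Leaving out 1 library gave 1160 to 4356 genes and 2 to 7 members for CoA, 201 to 2669 genes and 6 to 7 members for Tc22 against Tc0, and 2185 to 5913 genes and 3 to 8 members for Tc22 against CoA. The cause of these moves was not tested, beyond the fewer samples of each such fit. The lowest count of any of the 10 genes in a library was 76, for Nfkbib.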
